A study of Mus musculus with 4 samples.

Results

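The 10 genes described here encode the coreceptors and the nuclear regulators that decide whether a developing T cell becomes a CD4 helper or a CD8 cytotoxic cell. They comprise 3 coreceptor genes (Cd4, Cd8a and Cd8b1) and 7 regulator genes (Zbtb7b, Gata3, Runx1, Runx3, Tox, Satb1 and Bcl11b). They were taken as a fixed list by symbol from 19938 genes on the array, and each was read by the only probe set that names it alone, so no choice between probe sets was needed. This list was chosen with earlier results of these data known. All 10 lay above the background threshold of log2 5.87 (set at percentile 95 of the odorant and pheromone receptor genes, taken as silent here), a level that 12591 genes exceeded.

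Expression was measured on 4 Affymetrix Mouse Gene 1.0 ST arrays, 1 for each of 4 sorted populations of CD4+ thymocytes. The mice were 8 weeks old and of the C57BL/6n strain, and were either wild type at the microRNA gene Mir142 (miR-142+/+, here WT) or deficient (miR-142-/-). RNA came from pooled mice, 3 females and 2 males for WT and 1 female and 3 males for miR-142-/-. From each pool, cells were depleted of CD8+ cells with magnetic beads and then sorted by flow cytometry as CD4+CD8-CD69+Qa2- (the younger, newly selected cells, here Qa2-) or CD4+CD8-CD69-Qa2+ (the mature cells close to leaving the thymus, here Qa2+). One label of the younger miR-142-/- population calls it Qa2+, against its title and its gate, which were followed here. Because the sort itself selected cells with CD4 and without CD8 on the surface, the levels of Cd4, Cd8a and Cd8b1 describe cells already chosen for those proteins.

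A thymocyte that has rearranged its receptor carries both coreceptors. CD4 binds class II and CD8 binds class I molecules of the antigen-presenting cell, and prolonged signalling favours the CD4 fate. ThPOK, the zinc-finger factor encoded by Zbtb7b, is needed for the CD4 lineage and represses cytotoxic genes, while Runx3, with its partner Cbfb, silences Cd4 and drives the CD8 lineage. GATA3 and TOX act upstream of ThPOK, SATB1 organises chromatin at lineage genes of thymocytes, and BCL11B maintains T cell identity. miR-142 is a microRNA made in blood cells.

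The Mir142 locus makes the following mature microRNAs, shown with the seed (bases 2 to 8) in capitals because the genotype comparisons turn on their loss. Sequences are from RefSeq (GRCm38.p6), at chr11:87756867-87756887 and chr11:87756903-87756925 on the plus strand.
mmu-miR-142a-5p: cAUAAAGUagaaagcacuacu
mmu-miR-142a-3p: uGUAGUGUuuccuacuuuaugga

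Promoter windows, from 250 bases before to 50 bases after an annotated start, were present in the RefSeq table (GRCm38.p6) for 7 of the 10 genes, with 14 windows in all (Runx1, Runx3 and Zbtb7b have 2 starts each and Satb1 has 5, some of which overlap). Cd4, Cd8b1 and Tox had no entry. The core letters bound by Runx proteins, TGTGGT, were searched on both strands and were found in 3 of the 14 windows (21.4%), against 16.8% of 32851 windows of the same length. The letters AGATAA of GATA factors were found in 0 of 14 windows, against 11.2% of all windows. The windows with a TGTGGT match are printed because they belong to Zbtb7b, Runx1 and Runx3, and the second Runx3 window beside them because the array value is not split by start. Matches on either strand are in capitals, and all sequences read in the direction of the gene.
Zbtb7b, downstream start, chr3:89387622-89387921, minus strand: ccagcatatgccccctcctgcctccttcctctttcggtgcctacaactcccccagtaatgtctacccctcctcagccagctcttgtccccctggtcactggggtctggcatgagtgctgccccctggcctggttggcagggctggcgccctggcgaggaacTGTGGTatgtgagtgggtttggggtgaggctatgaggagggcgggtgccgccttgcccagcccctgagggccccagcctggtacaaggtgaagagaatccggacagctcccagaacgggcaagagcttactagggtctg
Runx1, upstream start, chr16:92826025-92826324, minus strand: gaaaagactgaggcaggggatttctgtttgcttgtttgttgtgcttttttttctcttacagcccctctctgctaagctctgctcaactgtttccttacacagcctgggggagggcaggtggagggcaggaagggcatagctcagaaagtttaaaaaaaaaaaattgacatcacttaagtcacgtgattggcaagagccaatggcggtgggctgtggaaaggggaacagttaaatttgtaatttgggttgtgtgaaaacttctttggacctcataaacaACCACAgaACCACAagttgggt
Runx3, upstream (distal) start, chr4:135120395-135120694, plus strand: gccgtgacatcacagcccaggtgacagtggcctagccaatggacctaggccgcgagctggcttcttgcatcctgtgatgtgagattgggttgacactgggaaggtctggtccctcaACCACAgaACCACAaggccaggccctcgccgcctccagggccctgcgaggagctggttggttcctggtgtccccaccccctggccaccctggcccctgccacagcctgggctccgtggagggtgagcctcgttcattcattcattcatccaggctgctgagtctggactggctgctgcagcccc
Runx3, downstream (proximal) start, chr4:135152295-135152594, plus strand: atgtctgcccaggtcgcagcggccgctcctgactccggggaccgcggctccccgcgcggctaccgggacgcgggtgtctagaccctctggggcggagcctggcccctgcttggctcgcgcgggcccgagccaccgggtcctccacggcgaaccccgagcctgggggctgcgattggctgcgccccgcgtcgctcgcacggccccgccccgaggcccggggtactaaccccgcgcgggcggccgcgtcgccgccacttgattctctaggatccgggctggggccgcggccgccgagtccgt

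The upstream windows of Runx1 and Runx3 share the same 14 letters, ACCACAgaACCACA, which hold the Runx core on the opposite strand as a pair separated by 2 bases. The pair begins at base 279 of the Runx1 window and at base 117 of the Runx3 window, counted from 1 at the 5′ end. Among all 32851 windows such a pair, with any 2 bases between and on either strand, occurred in 7 (0.021%), of which 3 belong to Runx1, Runx2 and Runx3. The pair and its spacing were read off the Runx windows before they were counted, so this share is a description and not a test. The window of Gm16225, on the opposite strand, overlaps that of Runx3 and holds the same pair, so the 7 windows hold 6 positions in the genome. The single match in the Zbtb7b window begins at base 162. Distal and proximal transcripts of Runx3 are known to be used differently in CD8 and CD4 cells, and 1 gene-level probe set does not separate them.

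The label checks bear on every comparison below. The Mir142 probe set read log2 9.41 to 10.11 on the WT arrays and 4.88 to 5.29, below background, on the miR-142-/- arrays. Cd69 was lower in Qa2+ than in Qa2- cells by 0.77 in WT and 0.96 in miR-142-/- on the log2 scale, and H2-Q4, a relative of the genes for Qa2, was higher by 0.63 and 0.73. The labelled pools of both sexes were not matched by sex-linked transcripts, since Xist read 12.14 to 12.67 in WT and 4.83 to 5.06 in miR-142-/-, while Eif2s3y, Kdm5d and Uty read at most 5.09 in WT and at least 9.72 in miR-142-/-. Sex and genotype therefore cannot be told apart in these arrays. Of 8 general T cell markers 7 had a probe set of their own, and all 7 were above background, with mean log2 levels of 11.96 to 12.26 on the 4 arrays. Defining B cell markers Cd79a, Ms4a1 and Pax5 were below background on every array. Of 7 dendritic and myeloid markers, 4 were below background on all 4 arrays. Lyz2 and Siglech were above it on average, with Siglech near it at 5.84 to 6.17.

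**Figure D1:**
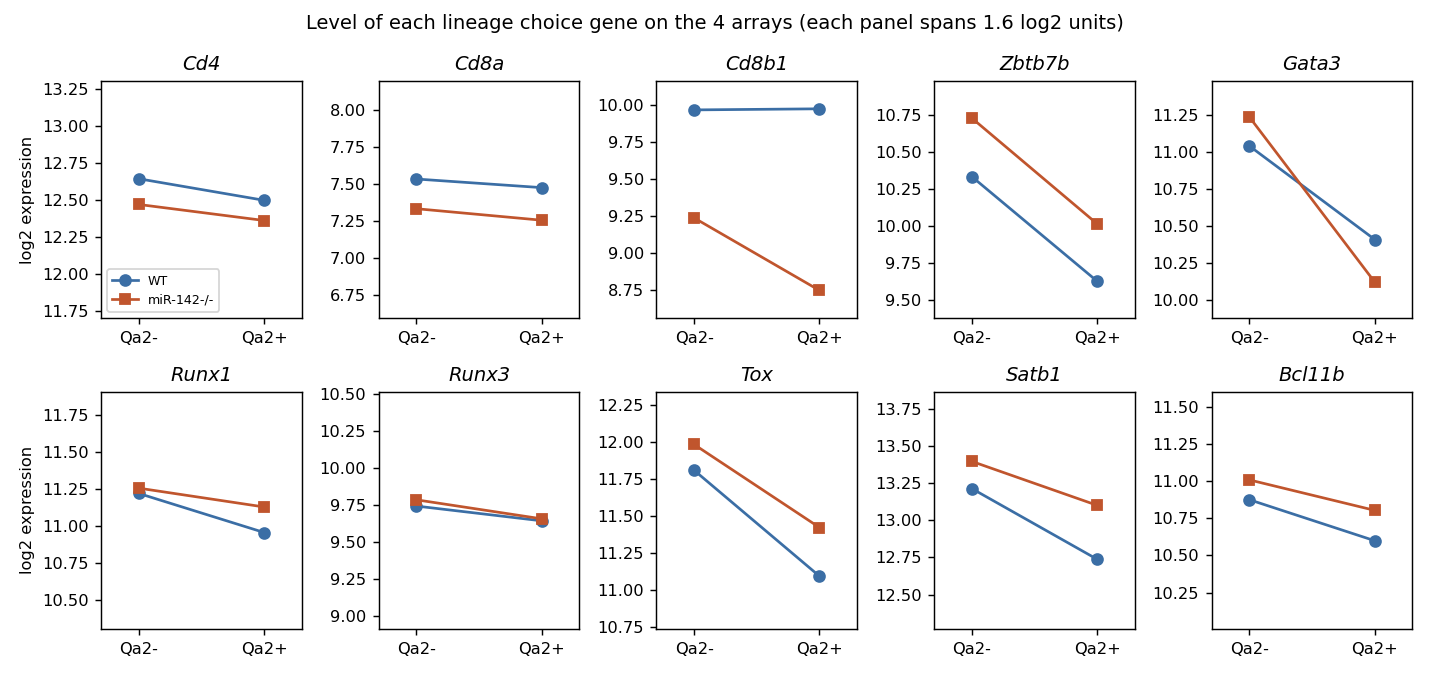
Log2 expression of each gene on the 4 arrays, with 1 panel per gene, Qa2- and Qa2+ cells on the horizontal axis, circles for WT and squares for miR-142-/-; each point is 1 array and lines join the populations of 1 pool. Cd8b1 is lower on both miR-142-/- arrays, and Zbtb7b, Gata3 and Tox slope down from Qa2- to Qa2+ in both genotypes.

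Among the lineage choice genes, Cd8b1 was lower in both miR-142-/- populations, and the other 9 differed between genotypes by less than 1.5-fold. Differences between genotypes are miR-142-/- minus WT on the log2 scale within a sorted population. With 1 array per group they have no replicate check and no test, so genes at least 1.5-fold apart were counted. By that count, 1 of the 10 genes was lower and 0 were higher in Qa2- cells, where 3.74% of the 12591 genes were lower and 3.11% higher. In Qa2+ cells the counts were also 1 and 0, where 4.88% of all genes were lower and 4.56% higher. At 2-fold the count of lower genes was 0 at the younger and 1 at the mature stage, against 1.29% and 1.86% of all genes. The median difference of the 10 genes was 0.09 in both Qa2- and Qa2+ cells, against -0.0011 and 0.0013 over all genes.

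Levels over the 4 arrays are given below in a fixed order, WT before miR-142-/- and Qa2- before Qa2+ within each genotype. Cd8b1, the beta chain of the CD8 coreceptor, read log2 9.97, 9.98, 9.24 and 8.75. Both miR-142-/- arrays were below both WT arrays. The difference was -0.73 in Qa2- cells (1.66-fold lower), a value as low or lower in 2.49% of all genes, and -1.23 in Qa2+ cells (2.34-fold lower), as low or lower in 1.23%. Cd8a, the alpha chain, with which Cd8b1 forms the heterodimer of conventional CD8 T cells, read 7.53, 7.47, 7.33 and 7.25 on the same arrays in the same order. Its differences of -0.20 and -0.22 were below 0 in both populations but were matched or exceeded in that direction by 19.4% and 20.6% of all genes. Set against each other within a population, the difference of Cd8b1 was lower than that of Cd8a by 0.53 in Qa2- and 1.01 in Qa2+ cells, which a constant shift of an array leaves the same. Cd8a was the dimmer of the 2, with a mean level above that of 32.3% of the genes tested, against 70.2% for Cd8b1. Background correction can compress differences of dim probe sets, and whether it did so for Cd8a was not tested.

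Cd8b1 and Cd8a are neighbours in the mouse genome (order of genes in GRCm38.p6). The 4 protein-coding genes that flank them, Krcc1 and Gm1070 on the Cd8b1 side and Rmnd5a and Rnf103 on the Cd8a side, differed between genotypes by -0.13 to 0.26 in Qa2- and by -0.13 to 0.45 in Qa2+ cells. None of these 4 was 1.5-fold apart in either population.

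Markers of some other cells were also lower without miR-142, and those of others were not. Of 5 innate-like T cell markers (Zbtb16, Klrb1c, Il2rb, Tbx21 and Cd160), 5 were lower without miR-142 at the younger stage and 4 at the mature stage, and their summed linear signal was 2154 and 2379 in WT Qa2- and Qa2+ cells against 1040 and 966 in miR-142-/-. Il2rb, the brightest of the 5 at log2 10.54, 10.75, 9.50 and 9.38 on the 4 arrays, made up most of each sum. Among the 5, Klrb1c was above background in WT Qa2- cells alone (7.42), and read 4.41 on both miR-142-/- arrays. Of 15 genes of the cytotoxic programme, 12 were lower in each population, and their summed signals on the 4 arrays were 6024, 5218, 2937 and 4073. Tbx21 and Cd160 are in both lists. The natural killer markers Ncr1 and Klrk1 summed to 129.8, 50.6, 43.9 and 39.5, with Ncr1 below background on all 4 arrays. Of 4 regulatory T cell markers, Ctla4 and Foxp3 were at least 1.5-fold lower without miR-142 in both populations, and Il2ra and Ikzf2 differed by less. Ctla4 read 8.69, 9.29, 6.07 and 6.64, with both miR-142-/- arrays below both WT arrays. Foxp3 read 8.21, 10.36, 7.01 and 8.69, lower without miR-142 by 1.19 in Qa2- and 1.66 in Qa2+ cells. Markers of double-positive thymocytes, which express both coreceptors, went mostly the other way in Qa2- cells and both ways in Qa2+ cells. Of 6 such markers, 5 were higher without miR-142 in Qa2- and 4 in Qa2+ cells, counting Rag2, which was below background. At least 1.5-fold, 2 were higher and 0 lower in Qa2- cells, against 3.11% and 3.74% of all genes. In Qa2+ cells Dntt was higher (1.08) and Rag1 lower (-0.61), where 4.56% of all genes were higher and 4.88% lower. The summed signals of all 6 markers on the 4 arrays were 594, 1587, 930 and 2031. Of 3 gamma-delta T cell markers, 2 were higher without miR-142 at the younger stage and 3 at the mature stage, all by less than 1.5-fold. Their median difference was 0.09 at the younger stage and 0.12 at the mature one, and Blk among them read near background (5.86 to 6.07). The part of any of these cells in the Cd8b1 difference was not tested. In bulk RNA of a sorted population, fewer cells of a type and less RNA per cell cannot be told apart.

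Cd4, the helper coreceptor and the basis of the sort, read 12.64, 12.50, 12.47 and 12.36. It spanned 0.28 over all 4 arrays. Its genotype differences of -0.17 and -0.14 were as low or lower in 22.3% and 29.6% of all genes.

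Zbtb7b, the gene of ThPOK, read 10.34, 9.63, 10.73 and 10.02. It was higher in miR-142-/- by 0.39 in both populations (1.31-fold in each), short of 1.5-fold. Differences as high or higher were seen in 6.43% of all genes in Qa2- and 9.77% in Qa2+ cells. Gata3, an activator upstream of Zbtb7b, read 11.04, 10.41, 11.24 and 10.12. It was 0.20 higher without miR-142 in Qa2- cells, and 0.29 lower in Qa2+ cells. A link of Gata3 to the Zbtb7b difference was not tested.

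Runx3, the factor of the CD8 lineage, differed least among the 10 genes over the 4 arrays. It read 9.74, 9.64, 9.78 and 9.66, a span of 0.14, and differed between genotypes by 0.04 and 0.01, the latter turning to -0.02 after quantile normalization. Runx1, its relative expressed throughout T cell development, read 11.22, 10.95, 11.25 and 11.13, with genotype differences of 0.04 and 0.17. Runx paralogs share a conserved domain, and cross-hybridisation of probes between them was not tested.

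Tox, a high mobility group factor of positive selection, read 11.81, 11.09, 11.98 and 11.42 and differed between genotypes by 0.17 and 0.33. Satb1, the chromatin organiser, read 13.22, 12.74, 13.40 and 13.10, with differences of 0.18 and 0.36. Bcl11b, which holds cells in the T lineage, read 10.88, 10.60, 11.01 and 10.80, with differences of 0.13 and 0.20. All of these 3 regulators were higher in miR-142-/- in both populations, by less than 1.5-fold. In all, 6 of the 10 genes were higher and 3 lower in both populations, and Gata3 differed in sign. The miR-142-/- and WT arrays of each population came from the same pair of pools, so the 2 comparisons are not independent.

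**Figure D2:**
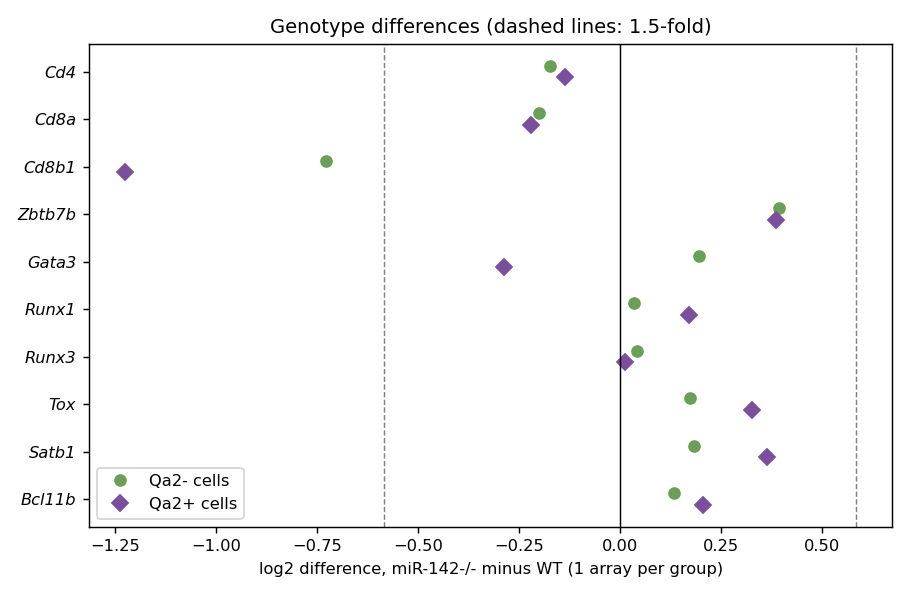
Log2 difference between miR-142-/- and WT for each of the 10 genes, with circles for Qa2- and diamonds for Qa2+ cells, each from 1 array per group; dashed lines mark 1.5-fold. Cd8b1 lies beyond the line at -0.73 and -1.23, and the other 9 genes lie between -0.29 and 0.39.

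From Qa2- to Qa2+ cells, several regulators of the CD4 fate were lower in both genotypes. Zbtb7b, Gata3, Tox and Satb1 passed the test of the stage difference averaged over genotypes, and no gene of the 10 was higher by it. The test was limma's moderated test over all 12591 genes with genotype as a block, Benjamini-Hochberg adjustment and 2 pairs of arrays. By it 4 of the 10 genes fell and 0 rose, where 8.35% of all genes fell and 4.77% rose. At an unadjusted p under 0.05, limma gave 5 lower and 0 higher, where 19.4% of all genes were lower and 10.2% higher. The test has 1 residual degree of freedom, so its errors come mostly from the spread pooled over all genes, and they do not measure the spread between mice. That 1 degree is the difference of the stage differences between the genotypes. The 2 pairs are of different genotypes and are not replicates of 1 condition. On a simulated data set this fit made false calls above its nominal rate. Without the genotype block 0 of the 10 genes passed limma's adjusted threshold, and neither did any of the 12591 genes (0%). In that fit 3 of the 10 were lower and 0 higher at an unadjusted p under 0.05, against 8.37% and 3.89% of all genes.

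Zbtb7b was lower in Qa2+ than in Qa2- cells by 0.71 in WT and by 0.71 in miR-142-/- (1.63-fold and 1.64-fold). Averaged over genotypes it fell by 0.71 ± 0.10 on the log2 scale (limma SE, 2 pairs, Benjamini-Hochberg adjusted p = 0.00448). The stage differences of Zbtb7b in the genotypes were 0.0079 apart.

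Gata3 was lower in Qa2+ cells by 0.63 in WT (1.55-fold) and by 1.11 in miR-142-/- (2.17-fold). The average fell by 0.87 ± 0.13 (limma SE, adjusted p = 0.00613). A stage difference as low or lower was seen in 3% of all genes in WT and 0.635% in miR-142-/-. The stage difference was 0.48 lower in miR-142-/- than in WT, and this has no test with 1 array per group.

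Tox was lower in Qa2+ cells by 0.71 in WT (1.64-fold) and 0.56 in miR-142-/- (1.47-fold), and its average fell by 0.64 ± 0.10 (limma SE, adjusted p = 0.00791). Satb1 was lower by 0.48 in WT and by 0.30 in miR-142-/-. Its average fell by 0.39 ± 0.10 (limma SE, adjusted p = 0.0469), a call lost after centring each array (adjusted p = 0.0694) and after quantile normalization (adjusted p = 0.139), with adjusted p of 0.00595 to 0.458 over all alternatives.

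The other regulators did not pass. Bcl11b averaged -0.24 (95% interval -0.47 to -0.01, limma adjusted p = 0.149) and Runx1 -0.20 (-0.43 to 0.04, adjusted p = 0.237). Runx3, at -0.10 in WT and -0.13 in miR-142-/-, averaged -0.11 (-0.34 to 0.11, limma adjusted p = 0.475). These intervals leave room for a decrease of the size seen for Satb1 in the case of Bcl11b and Runx1, and the interval of Runx3 does not reach the -0.39 of Satb1.

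The coreceptor genes did not pass either. Cd4 averaged -0.13 (95% interval -0.35 to 0.10, limma adjusted p = 0.424). Cd8a averaged -0.07 (-0.29 to 0.16, limma adjusted p = 0.686), and its sign turned under quantile normalization (0.03). Cd8b1 was 0.01 higher in Qa2+ cells of WT and 0.49 lower in Qa2+ cells of miR-142-/-, averaging -0.24 (-0.55 to 0.06, limma adjusted p = 0.261).

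Single differences at least 1.5-fold lower in Qa2+ cells were found for 3 of the 10 genes in WT (Zbtb7b, Gata3 and Tox), against 3.69% of all genes, and for 2 in miR-142-/- (Zbtb7b and Gata3), against 3.64%. After centring or quantile normalization the count in WT was 2, since Gata3 came to -0.58 and -0.57, short of 1.5-fold. At 2-fold the counts were 0 and 1 (Gata3), against 0.731% and 0.818% of all genes. At least 1.5-fold higher values were found for 0 of the 10 in each genotype, against 2.69% and 2.65% of all genes. Below 0 were 9 of the 10 genes in WT and 10 in miR-142-/-, with medians of -0.27 and -0.25, against -0.06 and -0.06 over all genes. In WT, 62.0% of all genes were as low as or lower than Cd8b1 (0.01), the highest of the 10. In miR-142-/-, 46.7% were as low as or lower than Cd8a (-0.08), the highest there. Values below 0 were thus common among all genes. The share of lower genes depends on scaling, as 600 genes rose and 1051 fell by limma as deposited, 688 and 754 after centring and 980 and 768 after quantile normalization.

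**Figure D3:**
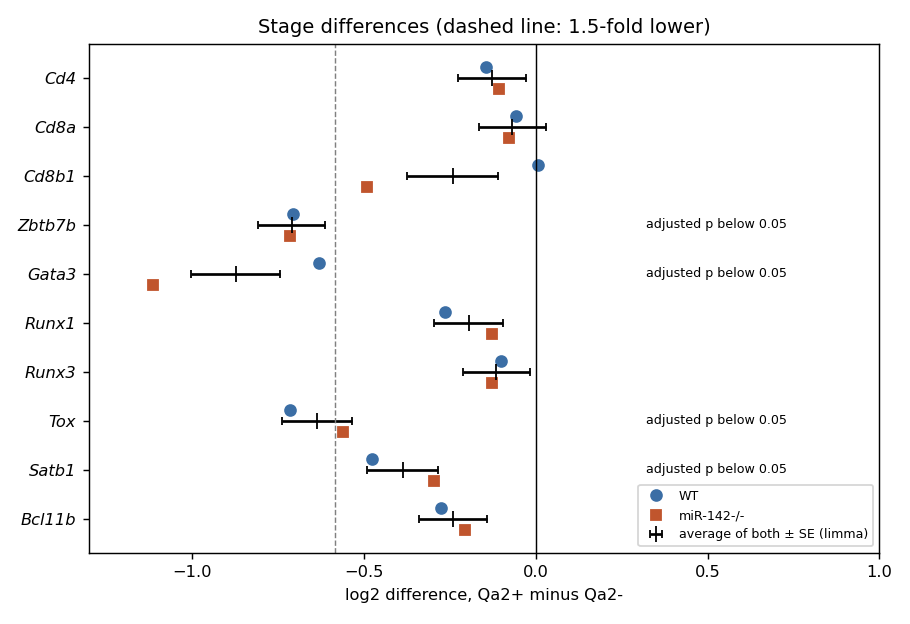
Log2 difference between Qa2+ and Qa2- cells for each gene, with circles for WT, squares for miR-142-/- and black bars for the average of both with its limma standard error; the dashed line marks 1.5-fold lower. Zbtb7b, Gata3, Tox and Satb1 carry the label of an adjusted p below 0.05, at averages of -0.71, -0.87, -0.64 and -0.39.

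Double-positive thymocytes, the stage before lineage choice, express both coreceptors and also the recombination genes Rag1, Rag2 and Dntt, and Aqp11, Arpp21 and Ptcra. In each genotype all 6 markers read higher at the Qa2+ stage, with summed linear signals going from 594 to 1587 in WT and from 930 to 2031 in miR-142-/-. Of these, Rag2 was below background on all 4 arrays. Neither Cd4, Cd8a nor Cd8b1 was 1.5-fold higher in Qa2+ cells of either genotype. Of 4 regulatory T cell markers, Foxp3, Il2ra and Ctla4 rose and Ikzf2 fell (limma, Benjamini-Hochberg adjusted p = 0.000456, 0.00489, 0.00965 and 0.00982), and their summed signal went from 3836 to 5208 in WT and from 3727 to 4095 in miR-142-/-. The dendritic and myeloid gene Lyz2 read 5.87, 7.48, 5.98 and 6.67 and rose with stage (limma adjusted p = 0.00883), while the summed signals of its list were 333.9, 459.1, 359.7 and 370.0. The part of these cells in the stage differences of Zbtb7b, Gata3, Tox and Satb1 was not tested.

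The stage differences of the genotypes were compared for each of the 10 genes. Apart from Cd8b1 and Gata3, the difference of the stage differences (miR-142-/- minus WT) lay between -0.03 and 0.18. Over all genes this difference had a median of -0.0008 and a standard deviation of 0.27, so such values were common. For Cd8b1 and Gata3 it was -0.50 and -0.48, as low or lower in 2.69% and 2.99% of all genes. At least 1.5-fold, 0 of the 10 genes were lower or higher, against 1.6% lower and 1.82% higher of all genes.

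The 5 genes that varied by at least 1.5-fold over the 4 arrays were compared with 11918 other named genes above background by the Euclidean distance between profiles centred on each gene's mean over the 4 arrays. Cd8b1 was closest to the histone gene H2ac15 (distance 0.10), followed by the ectonucleotidase gene Entpd1 (0.16) and the replication factor gene Cdc45 (0.16). Only 7 genes lay within 0.2 of Cd8b1. Zbtb7b was closest to the tubulin acetyltransferase gene Atat1 (0.07), the membrane glycoprotein gene Cd200 (0.08) and the planar polarity gene Vangl2 (0.08), with 40 genes within 0.2.

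Gata3 was closest to Ndrg1 (0.09), which was also lower in Qa2+ cells by 0.64 in WT and 1.23 in miR-142-/-, and then to the EGR co-regulator gene Nab2 (0.15) and the kinase gene Camk1d (0.15). Within 0.2 of Gata3 lay 14 genes. Tox was closest to the sialyltransferase gene St6gal1 (0.02), Bcl11a and Basp1 (both 0.04), with 82 genes within 0.2. Satb1 was closest to Rbmx, Abat and Zfp366 (0.02, 0.02 and 0.03), and 407 genes lay within 0.2 of it, so its profile was a common one. With 4 points a near profile is a description of these arrays.

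**Figure D4:**
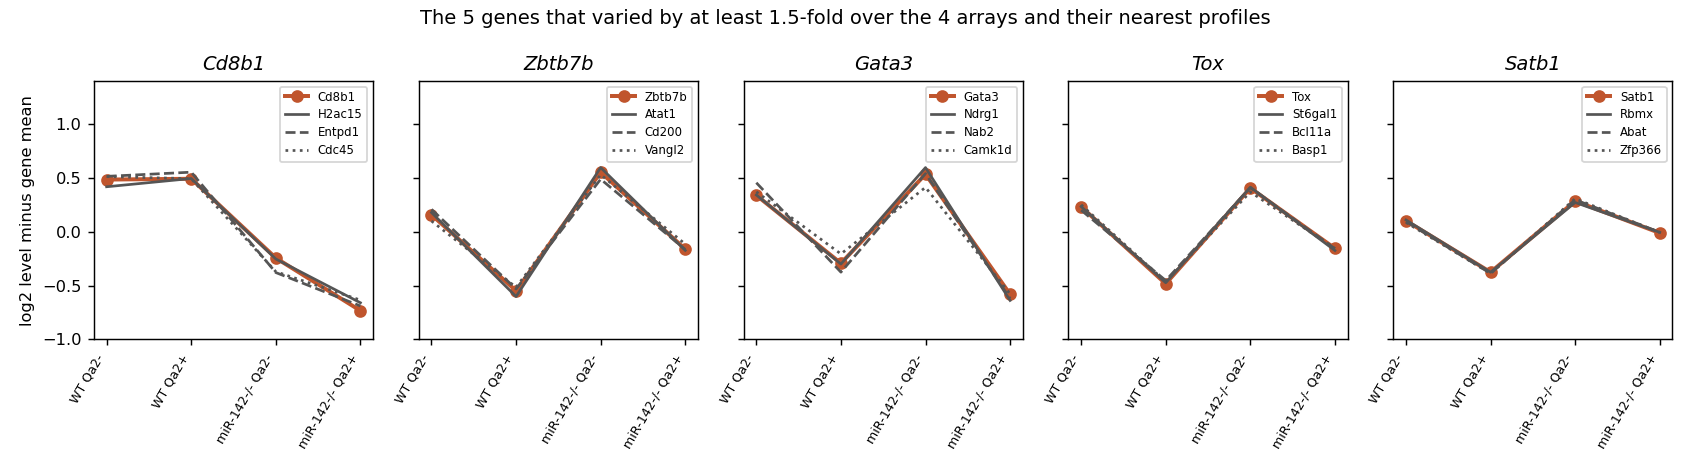
Profiles over the 4 arrays of the 5 genes that varied by at least 1.5-fold (thick lines with points) and of their 3 nearest genes (thin lines), as log2 level minus the mean of each gene. The Cd8b1 profile separates the genotypes, whereas those of Zbtb7b, Gata3, Tox and Satb1 separate the stages.

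Other regulators of lineage choice were read from a separate list of 22 genes. This list and those that follow were chosen with earlier results of these data known, so their counts are a description. Of the 22 genes, 19 had a probe set of their own and all 19 were above background. At least 1.5-fold, 1 was higher and 1 lower without miR-142 at the Qa2- stage, and 3 were higher and 2 lower at the Qa2+ stage. For these and the lists that follow, the shares of all 12591 genes past the same thresholds were 3.11% up and 3.74% down for genotype at the Qa2- stage, 4.56% and 4.88% at the Qa2+ stage, and 4.77% and 8.35% between stages by limma. The lower gene in Qa2- cells, the corepressor gene Tle3 (-0.60), fell short of 1.5-fold after centring (-0.55) and quantile normalization (-0.58). The list medians were 0.06 and 0.10. Myb, a factor known to promote the CD4 lineage by activating Gata3, read 10.25, 10.35, 10.88 and 11.63, and was 0.63 and 1.28 higher in miR-142-/-. Patz1, a zinc-finger gene whose product MAZR represses Zbtb7b and Cd8, was 0.49 and 0.73 higher in the same comparisons. A link of Myb or Patz1 to the differences of Gata3, Zbtb7b or Cd8b1 was not tested.

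The E protein inhibitor genes Id2 and Id3 differed between genotypes in Qa2+ cells in opposite directions. Id3 read 8.88, 9.04, 8.80 and 7.58, so the miR-142-/- Qa2+ array stood below the other 3, with genotype differences of -0.08 in Qa2- and -1.45 in Qa2+ cells. Id2 read 12.38, 11.47, 12.53 and 12.29, with differences of 0.15 and 0.82. Between stages 2 of the 19 genes, Lef1 and Id2, fell by 0.42 ± 0.10 and 0.57 ± 0.15 (limma SE, adjusted p = 0.0301 and 0.0477), and 0 rose. The call of Id2 was lost after centring (limma adjusted p = 0.0639) and with the mean of all probe sets (0.0524).

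Receptor and cytokine signals that feed lineage choice were read from 14 of 18 listed genes, all above background. At least 1.5-fold, 0 of the 14 were higher or lower in miR-142-/- in either population, but after quantile normalization 1, the interleukin-7 receptor gene Il7r, was higher in Qa2+ cells (0.49 as deposited, 0.63 then). Between stages 2 fell and 1 rose. The immediate-early factor genes Egr1 and Egr2 fell by 1.05 ± 0.10 and 0.99 ± 0.11 (limma SE, adjusted p = 0.00114 and 0.00187). Socs3, a feedback inhibitor of cytokine receptors, rose by 1.32 ± 0.12 (limma SE, adjusted p = 0.000995).

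The cytotoxic programme, which Runx3 promotes and ThPOK restrains, had more genes lower than higher in miR-142-/-. The Runx3 probe set differed between genotypes by 0.04 and 0.01. A link of Runx3 or Zbtb7b to the programme was not tested. The list was chosen with earlier results of these data known, so its counts are a description. Of its 15 genes, 14 were above background. At least 1.5-fold, 9 were lower and 1 was higher in Qa2- cells and 5 were lower and 0 higher in Qa2+ cells (of all genes, 3.74% and 3.11%, and 4.88% and 4.56%), with medians of -1.20 and -0.30. The granule gene Nkg7 read 10.29, 8.97, 6.83 and 8.52, with the miR-142-/- Qa2- array below the other 3. Gzmb, a granule protease gene, read 8.88 in WT Qa2- cells and between 5.43 and 6.02 on the other 3 arrays, and the natural killer receptor gene Klrd1 read 7.96 there and between 5.26 and 6.13 elsewhere. Xcl1, a chemokine gene, fell by 2.08 ± 0.23 with stage (limma SE, adjusted p = 0.00206). By limma 3 of the 14 genes fell with stage and 2, Prf1 and Ctsw, rose.

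The helper programme was read from 10 genes, all above background. At least 1.5-fold, 1 was higher and 0 lower without miR-142 at the Qa2- stage, and 1 was higher and 1 lower at the Qa2+ stage, with medians of 0.23 and 0.32. Between stages 3 fell and 1 rose. Cd40lg, the helper ligand for B cells, fell by 1.27 ± 0.10 (limma SE, adjusted p = 0.000666), from differences of -1.35 and -1.19 in WT and miR-142-/- arrays, and Il6ra rose by 0.81 ± 0.14 (limma SE, adjusted p = 0.0101). Tnfrsf4 (OX40) and Maf differed between genotypes mainly in Qa2+ cells, by -0.82 and 1.37, against 0.11 and 0.26 in Qa2- cells.

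**Figure D5:**
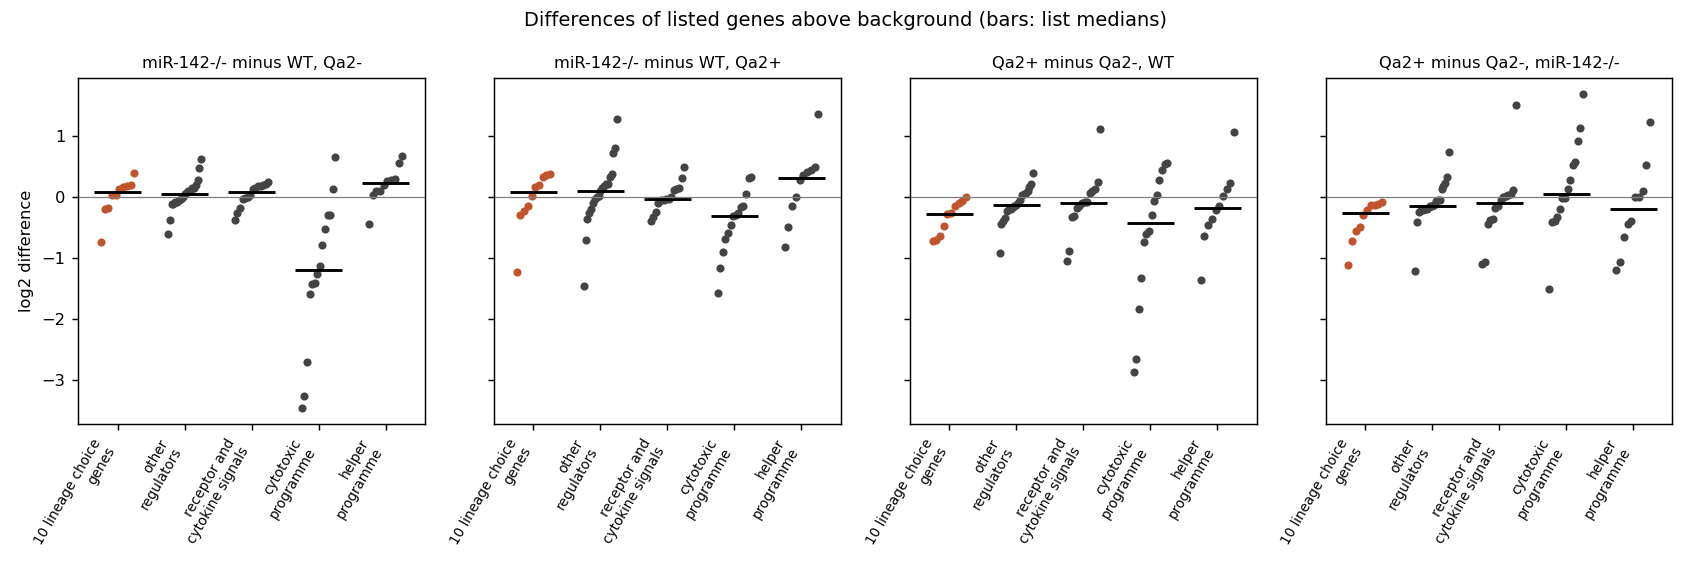
Log2 differences of the genes above background in each list (points, ordered by value) for the 4 comparisons, with horizontal bars for list medians; the 10 lineage choice genes are in the first column of each panel. The cytotoxic programme has a median of -1.20 for miR-142-/- minus WT in Qa2- cells, and the medians of the lineage choice genes are -0.27 and -0.25 between stages.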

How the data were processed

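The deposited values were log2 expression values per probe set, 1 column per array. Per the submitters' processing notes, RMA and Partek were used, and their versions are not given in the sources used here. The RMA method subtracts background, equalises array distributions and summarises probes, which compresses differences of dim genes. Of 35557 probe sets, 21789 named 1 gene in the platform annotation, 1621 several and 12147 none, and 21698 had an Entrez ID found in RefSeq (GRCm38.p6). Where several probe sets named one of the 19938 genes, that of highest mean level was taken. Differences were taken between single arrays, and the mean stage difference of the genotypes was tested with limma 3.58.1 (R 4.3.3), two-sided at 0.05 after Benjamini-Hochberg adjustment, with genotype as a block (both stages came from the same pool), 1 residual and 6.94 prior degrees of freedom. The fit was tested on simulated data, where the altered genes were all recovered and false calls exceeded the nominal rate. Having 4 arrays limits the precision. The 10 genes and all lists were chosen with earlier results of these data known. Named genes were the 10 genes, up to 4 genes with the largest differences of each pathway list, the 3 nearest profiles of each gene that varied by 1.5-fold and the label checks; cell marker genes, genes flanking the Cd8 locus and single other list genes (Lef1, Prf1, Ctsw, Tle3, Il7r, Fasl and Icos) were named besides. Alternatives were centring each array, quantile normalization, the mean of all probe sets, a 2-fold threshold, no filter on low values, a prior with a trend and no genotype block.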

Additional observations from a re-analysis of the deposited data

Results flagged for a closer look

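Cd8b1 differed in sign between stages, with Qa2+ minus Qa2- at 0.01 in WT and -0.49 in miR-142-/-, a difference of stage differences of -0.50. The WT value is near 0, and the difference was not tested. Gata3 differed in sign between genotypes, 0.20 higher in miR-142-/- in Qa2- cells and 0.29 lower in Qa2+ cells, a difference of -0.48 that was not tested either.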

How the results depend on the processing

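With 1 array per group no array could be left out of a single difference, and leaving out a pair leaves the averaged stage fit with no residual degrees of freedom. Over the 50 differences of the 10 genes, centring and quantile normalization moved no value by more than 0.16 on the log2 scale, and the mean of all probe sets cannot move them, since each gene has 1. Quantile normalization turned the sign of the Cd8a stage difference in WT (-0.06 to 0.07), of its average over genotypes (-0.07 to 0.03) and of the Runx3 genotype difference in Qa2+ cells (0.01 to -0.02). At a 2-fold threshold the count of lower genes became 0 in place of 1 for genotype in Qa2- cells, 0 in place of 3 for stage in WT and 1 in place of 2 for stage in miR-142-/-. Under no replicate block, which leaves out the genotype term, the count of genes that fell with stage became 0 in place of 4, in a fit that 0 of all 12591 genes passed in either direction, with limma adjusted p of 0.321 for Gata3, 0.346 for Tox, 0.355 for Zbtb7b and 0.458 for Satb1, the highest of their alternatives; the lowest were 0.001, 0.000738, 0.000729 and 0.00595. The calls of Zbtb7b, Gata3 and Tox held with centring, quantile normalization, no filter and a trended prior. That of Satb1 was lost with centring and quantile normalization, and the cause was not tested. The other list and marker genes that passed limma with the block all missed its threshold without the block (lowest adjusted p 0.296), and Fasl and Icos, counted as fallen in the cytotoxic and helper lists, also missed it after centring (0.0524 and 0.0687). At 2-fold 14 list counts moved by over 1.5 times and 26 did not. Centring also took Gzmb out of the genes 1.5-fold lower in Qa2+ cells (-0.59 to -0.56) and brought Il6ra into those higher in Qa2- cells (0.56 to 0.60). The Cd8b1 minus Cd8a comparison was added after seeing the data. Genotype cannot be told apart from the sex-linked difference of the pools.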
